A study of Mus musculus with 8 samples.

Results

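Luzp2 and Plxdc2 were followed in cultured mouse hippocampal neural progenitor cells (NPCs) through differentiation. They are 2 of the 9140 genes in the deposited expression matrix and were found there by symbol. Both were selected on a measured pattern, a higher level in cells labelled Kmt2d+/βgeo than in cells labelled wild type, so that difference is given here as a description with no test. The cells came from the microdissected dentate gyrus of littermate embryos at embryonic day 18 per the labels, from C57BL/6J females mated to Kmt2d+/βgeo males. The Kmt2d+/βgeo embryos carry 1 copy of a gene-trap allele that the labels call Mll2Gt(RRt024)Byg, and the controls are labelled wildtype with the strain C57BL/6J. Cultures of both labels were kept undifferentiated with the growth factors EGF and FGF2 and were collected at day 0 and at 2, 4 and 8 days after these were removed. Each label and day is 1 droplet library of single cells, 8 libraries and 30408 cells in all, so genotype, embryo, culture and strain background cannot be told apart, and cells were not used as replicates.

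Kmt2d encodes a histone methyltransferase that marks enhancers, and loss of a single copy of the human gene causes Kabuki syndrome, which includes intellectual disability. Luzp2 encodes a leucine zipper protein transcribed mainly in the brain and spinal cord, and little is known of what it does. Plxdc2 encodes a transmembrane protein with a plexin-like extracellular domain. It binds pigment epithelium-derived factor, a secreted protein encoded by Serpinf1, and is known in the embryonic nervous system for patterned expression and for promoting division of neural progenitors. The dentate gyrus keeps neural stem cells into adult life, and cells cultured from it give neurons and astrocytes once growth factors are withdrawn.

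Both are long genes on different chromosomes. On GRCm38, Luzp2 (ENSMUSG00000063297) lies on the plus strand at chr7:54835498-55268885 and spans 433.4 kb, with 12 exons in its coding transcript. Plxdc2 (ENSMUSG00000026748) lies on the plus strand at chr2:16356304-16755839 and spans 399.5 kb, with 14 exons in its longest coding transcript. Within its span Luzp2 holds 7 other annotated genes, 4 of them on the same strand, and 0 of the 7 are in the matrix. No annotated gene overlaps Plxdc2.

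The Luzp2 promoter is shown because this gene had the widest difference between the labels. RefSeq promoter sequence, from 250 bases before to 50 after the transcript start, was matched for 1 of the 2 genes, and its transcript start lies before the start in the deposited gene table. The window is chr7:54834995-54835294 on GRCm38.p6, plus strand. The capitals mark the only copy of CAGCTG, a palindromic form of the E-box CANNTG that basic helix-loop-helix factors bind.
Luzp2: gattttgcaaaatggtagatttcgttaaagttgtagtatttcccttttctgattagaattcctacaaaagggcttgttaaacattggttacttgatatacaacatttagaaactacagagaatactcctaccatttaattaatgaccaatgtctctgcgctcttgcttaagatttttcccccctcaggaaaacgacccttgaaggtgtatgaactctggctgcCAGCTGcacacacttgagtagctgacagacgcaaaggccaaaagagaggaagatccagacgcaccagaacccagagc
This window held 5 CpG dinucleotides, and 38.0% of 32851 promoters of this length held fewer. CAGCTG began 27 bases before the start, and 16.3% of the promoters held it on either strand. CANNTG, of which it is a special case, occurred at 2 places, against 72.3% of promoters with at least 1. The TATA-box form TATAAA was not found in these letters, nor was the SOX motif ACAAT, the CCAAT-box form GCCAAT or the E-box form CACGTG. The shorter core CCAAT was not searched, and it does stand in the sequence, as ccaat and, for the other strand, as attgg.

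The libraries held 2534 to 4900 cells with a median of 3972 to 11230 unique molecular identifiers (UMIs, each a captured RNA molecule) on the matrix genes, least at day 8 with the Kmt2d+/βgeo label. Any pair of libraries shared 0 to 10 cell barcodes. The level of Kmt2d did not separate the labels, with log2 ratios from -0.21 to 0.32 over the days. Reads were taken from the 3′ ends of transcripts, and the position of the trap was not known here, so this level may not check the labels. The day 4 libraries of both labels were alike, since 0 of 7459 genes differed by 2-fold between them. In the day 4 library labelled Kmt2d+/βgeo, Luzp2 and Plxdc2 lay within the range of the wild-type libraries. Values that rest on this library are named below. Of the progenitor markers, 5 of 9 were measured, and Fabp7 had a mean normalised count of 15.0 to 43.5 in every library, while Nes, Sox2, Hes1 and Hes5 were not analysed here. Of the neuron markers 3 of 8 were measured (Map2, Prox1 and Rbfox3) and of the astrocyte markers 5 of 8 (Gja1, S100b, Aldh1l1, Slc1a2 and Apoe). Of the oligodendrocyte lineage markers 1 of 7 was measured, Olig2. Markers of microglia, endothelial and mural cells, meningeal fibroblasts and ependyma had 0 genes in the matrix, so a part of such cells in the results could not be checked.

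Luzp2 was detected in every library, and the libraries fell into a high set of 3 and a low set of 5. The level is the mean normalised count per cell, in which each cell's counts on the matrix genes are scaled to the same total. In libraries labelled Kmt2d+/βgeo it was 0.287 at day 0, 1.48 at day 2, 0.0502 at day 4 and 2.62 at day 8, from 1497, 6805, 150 and 3448 estimated UMIs. In libraries labelled wild type it was 0.00824, 0.0305, 0.0422 and 0.0575, from 41, 134, 174 and 160 UMIs. The highest 3 libraries were therefore days 8, 2 and 0 of the Kmt2d+/βgeo label, and the lowest of these lay far above the day 8 wild-type level. The day 4 library labelled Kmt2d+/βgeo fell within the low set, next to the wild-type libraries of days 4 and 8. By exact Poisson intervals of the summed UMIs, scaled to the means, neighbours in this order were separate except among those 3 libraries. Their intervals were 0.0491 to 0.0673 (wild type, day 8), 0.0425 to 0.0589 (Kmt2d+/βgeo, day 4) and 0.0361 to 0.0488 (wild type, day 4). Such intervals cover counting error only and take UMIs as independent.

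Plxdc2 kept the same split of labels at days 0, 2 and 8, over a narrower range. Its mean normalised count in libraries labelled Kmt2d+/βgeo was 0.320 at day 0, 0.501 at day 2, 0.143 at day 4 and 0.800 at day 8, from 1764, 2413, 414 and 1082 UMIs. With the wild-type label it was 0.0576, 0.0929, 0.144 and 0.256, from 328, 354, 531 and 688 UMIs. Here too the 3 highest libraries were days 8, 2 and 0 of the Kmt2d+/βgeo label. The gap to the wild-type libraries was small at its closest point, where day 0 with the Kmt2d+/βgeo label (0.305 to 0.335) lay next to day 8 with the wild-type label (0.237 to 0.276). The 2 day 4 libraries could not be separated, at 0.130 to 0.158 and 0.132 to 0.156, and the other neighbours in the order were separate by counting error.

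**Figure D1:**
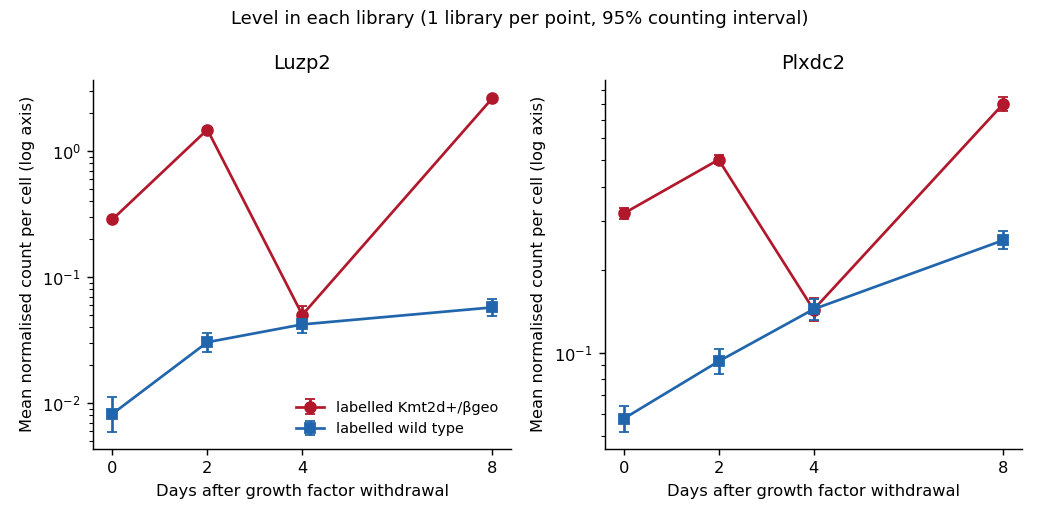
Mean normalised count per cell (log axis) of Luzp2 and Plxdc2 against days after growth factor withdrawal, with 1 library per point. Lines join libraries of 1 label, and bars give the exact 95% Poisson interval of the summed UMIs, scaled to the mean. Both genes rise over the days with the wild-type label, from 0.00824 to 0.0575 for Luzp2 and from 0.0576 to 0.256 for Plxdc2, while the Kmt2d+/βgeo label lies above it except at day 4, where the points meet.

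The share of cells in which a transcript was seen was also higher with the Kmt2d+/βgeo label at days 0, 2 and 8 at equal depth. Cells were thinned to 3000 UMIs each, which left out 765 cells of the day 8 library labelled Kmt2d+/βgeo and at most 23 of any other. A Luzp2 UMI was then found in 7.71%, 33.5%, 1.38% and 50.3% of cells labelled Kmt2d+/βgeo at days 0, 2, 4 and 8, and in 0.247%, 0.708%, 1.31% and 1.37% of cells labelled wild type. About 1 cell in 2 with the Kmt2d+/βgeo label thus showed Luzp2 at day 8 (48.2 to 52.4%, exact binomial interval) against 0.998 to 1.84% with the wild-type label. A Plxdc2 UMI was found in 9.49%, 15.1%, 4.85% and 23.0% of cells labelled Kmt2d+/βgeo and in 1.79%, 3.32%, 4.53% and 7.70% of cells labelled wild type. At day 4 the intervals of the labels overlapped for both genes, at 0.964 to 1.92% and 0.961 to 1.74% for Luzp2. Without thinning the Luzp2 shares were 19.4%, 55.3%, 3.20% and 58.4% with the Kmt2d+/βgeo label and 0.453%, 1.63%, 3.36% and 3.55% with the wild-type label. No cell type known to lack either gene was set apart in these cultures and free RNA in droplets was not measured, so the lowest shares, from 12 Luzp2 cells of 4857 at day 0, may be read only as upper limits on that background.

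**Figure D2:**
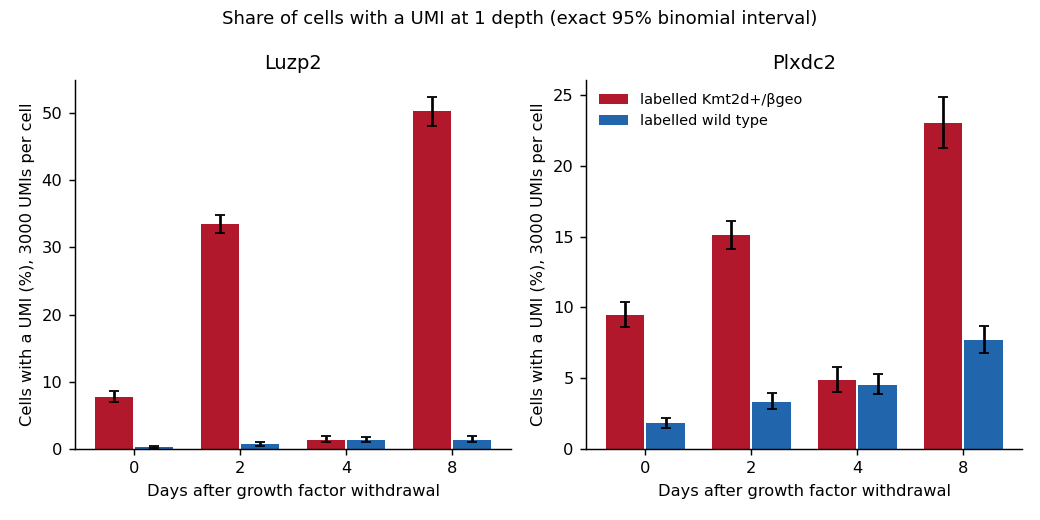
Share of cells with at least 1 UMI of Luzp2 or Plxdc2 after thinning to 3000 UMIs per cell, by day and label, with the exact 95% binomial interval. Luzp2 reaches 33.5% and 50.3% of cells at days 2 and 8 with the Kmt2d+/βgeo label and at most 1.37% with the wild-type label, and Plxdc2 reaches 23.0% against 7.70% at day 8.

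Against all other genes, Luzp2 had the highest ratio between the labels on every day on which it could be compared. Its level with the Kmt2d+/βgeo label over that with the wild-type label gave log2 ratios of 5.12, 5.60 and 5.51 on days 0, 2 and 8, which is 34.8-, 48.5- and 45.5-fold, and it ranked first of 7117, 7364 and 7576 genes. Ratios of summed UMIs were 5.25 (4.80 to 5.73), 5.38 (5.13 to 5.64) and 5.39 (5.16 to 5.63). At day 4 both libraries were under the minimum mean of 0.1 set for a comparison, and the ratio of summed UMIs was 0.11 (-0.22 to 0.43). Plxdc2 had log2 ratios of 2.47, 2.43 and 1.65 on days 0, 2 and 8, that is 5.55-, 5.39- and 3.13-fold, and it ranked 4th, 14th and 39th. At day 4 it was -0.0055, with -0.035 (-0.22 to 0.15) for summed UMIs, and Plxdc2 ranked 5219th of 7459 genes.

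Genes higher by at least 2-fold in the library labelled Kmt2d+/βgeo made up 0.674% of those compared at day 0, 1.68% at day 2, 0% at day 4 and 2.06% at day 8. Both Luzp2 and Plxdc2 were among them at days 0, 2 and 8, which is the pattern they were selected on, and nothing is read from that count. The gene just inside the threshold at day 0 was Serpinb6a at 1.01 and the one just outside was Mlf1 at 0.99. Over these 3 days 17 of 6635 genes passed each time. Ordered by their lowest ratio, Luzp2 came first at 5.12, followed by Col11a1, a fibrillar collagen chain, at 2.91 and Irx5, an Iroquois homeobox factor, at 2.32, with Plxdc2 8th at 1.65. The distribution of all ratios had an SD of 0.34 at day 0, 0.38 at day 2, 0.11 at day 4 and 0.49 at day 8 around medians between -0.04 and 0.04.

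**Figure D3:**
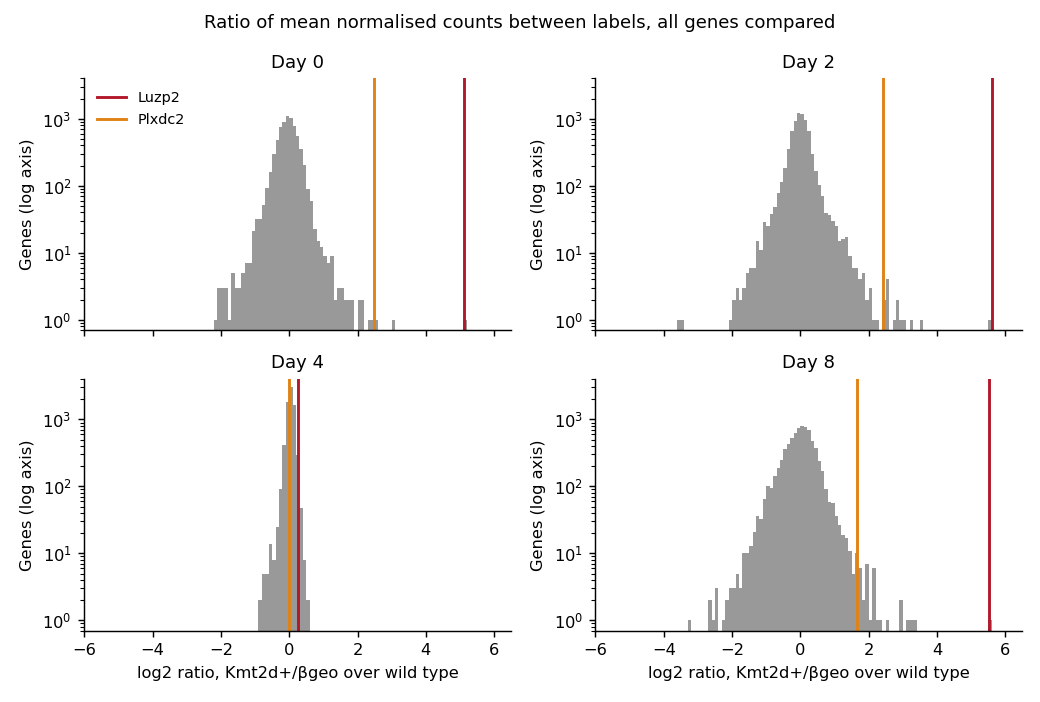
Number of genes (log axis) at each log2 ratio of levels between the labels (Kmt2d+/βgeo over wild type), with a panel per day and lines at Luzp2 and Plxdc2. Luzp2 lies beyond every other gene at days 0, 2 and 8, and at day 4 both lines fall inside a narrow distribution with an SD of 0.11 (the Luzp2 line there rests on means under the minimum for comparison).

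Both genes rose from day 0 to day 8 with either label. With the wild-type label the Luzp2 level stood at 3.70, 5.12 and 6.98 times its day 0 value on days 2, 4 and 8, and Plxdc2 at 1.61, 2.50 and 4.44 times. On the log2 scale the Luzp2 change to day 8 was 2.80, and 2.07 after thinning. These libraries gave a steady order of days for each gene, although from low counts for Luzp2, whose day 0 value rests on 41 UMIs in 22 cells. With the Kmt2d+/βgeo label the level on days 2 and 8 was 5.15 and 9.12 times that of day 0 for Luzp2 and 1.57 and 2.50 times for Plxdc2. The day 4 library broke the order, at 0.175 and 0.448 times the day 0 level. A rise of at least 2-fold by day 8 was seen for 19.0% of genes with the Kmt2d+/βgeo label and 16.3% with the wild-type label, and the numbers of genes that rose more than Luzp2 were 128 of 7765 and 194 of 7737. Because the rise in Plxdc2 was 4.44-fold with one label and 2.50-fold with the other, its ratio between the labels was lower at day 8 than at day 0.

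Within a library the transcripts were spread differently over cells. At 3000 UMIs per cell, the variance of Luzp2 over its mean (the Fano factor, near 1 for independent counting) was 1.45, 1.47, 1.33 and 1.43 on days 0, 2, 4 and 8 with the Kmt2d+/βgeo label and 2.11, 2.18, 0.987 and 1.22 with the wild-type label. Of these, the wild-type values at days 0 and 2 rest on 18 and 42 UMIs in 12 and 29 cells. No difference between the labels is read from the Fano factors. The values for Plxdc2 were 1.06 to 1.19 in the 8 libraries. They were nearer to 1 than those of Luzp2 in 7 libraries and farther in the wild-type library of day 4. Of thinned cells with a Luzp2 UMI, 19.0%, 36.0% and 44.5% had more than 1 at days 0, 2 and 8 with the Kmt2d+/βgeo label, against 25.0%, 24.1% and 13.6% with the wild-type label, which rest on 3, 7 and 6 cells. At day 4 these were 14.3% (5 cells) and 0. This share rises with the mean count by itself. Thinned means at days 0, 2 and 8 were 0.0966, 0.510 and 0.865 against 0.00371, 0.0102 and 0.0156 UMIs per cell. No difference between the labels is therefore read from it. In the wild-type library of day 2, 31 of the 67 cells with a Luzp2 UMI before thinning held at least 2, and these carried 72.7% of its Luzp2 UMIs. The few Luzp2 counts in that library were thus concentrated in fewer than 1% of its cells, and the highest cell held 12. In the wild-type libraries of days 4 and 8 the cells with at least 2 were 34 of 118 and 31 of 114, with 51.8% and 47.9% of the UMIs.

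Depth within a library also bore on Luzp2, and not in the same direction everywhere. At day 0 with the Kmt2d+/βgeo label, Luzp2 fell from 0.477 (0.436 to 0.521) UMIs per 10000 in the third of cells with fewest UMIs to 0.300 in the middle and 0.213 (0.195 to 0.231) in the third with most. On day 2 with the wild-type label it rose from 0.0115 (0.00527 to 0.0219) to 0.0634 (0.0510 to 0.0778), and on day 4 with that label from 0.0178 to 0.0929. Plxdc2 fell from 0.416 to 0.313 from the cells with fewest to those with most UMIs at day 0 with the Kmt2d+/βgeo label and rose from 0.393 to 0.725 at day 2. Cells with more UMIs thus held relatively less of both transcripts at day 0 with the Kmt2d+/βgeo label and relatively more Plxdc2 at day 2.

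Where both were high, Luzp2 and Plxdc2 met in the same cells as often as the product of their shares at day 8 and more often at day 2. In thinned cells labelled Kmt2d+/βgeo, 38 cells held both at day 0, 305 at day 2 and 254 at day 8, which is 1.21, 1.23 and 0.997 times the product of the single shares. Luzp2 was found in 41.2% (37.6 to 44.9) of cells with Plxdc2 and 32.2% (30.7 to 33.6) of cells without it at day 2, in 9.29% (6.66 to 12.5) and 7.54% (6.73 to 8.41) at day 0, and in 50.1% (45.7 to 54.5) and 50.3% (47.9 to 52.7) at day 8. Only the day 2 intervals were separate at this depth, and without thinning those of day 0 were as well, at 22.3% (20.0 to 24.7) and 18.2% (16.8 to 19.6). In the low libraries the 2 transcripts also met more often than the product of their shares, though in few cells, and the intervals of cells with and without Plxdc2 were at 3000 UMIs separate only in both day 4 libraries. At that depth they overlapped with the wild-type label at day 2, at 2.94% (0.807 to 7.36) and 0.631% (0.409 to 0.930), and at day 8, at 3.24% (1.41 to 6.28) and 1.22% (0.853 to 1.68). At 5000 UMIs these were separate too, at 3.70% and 0.919% and at 8.26% and 1.66%, and without thinning the intervals were separate in all 5 low libraries. The excess was 4.16-fold in the wild-type library of day 2 (4 cells), 3.84-fold at day 4 (8 cells) and 2.36-fold at day 8 (8 cells), and 5.30-fold in the day 4 library labelled Kmt2d+/βgeo (9 cells). Without thinning these values were 3.75, 4.18, 2.76 and 3.38, from 18, 57, 50 and 33 cells. The wild-type library of day 0 had 1 such cell at 3000 UMIs and 6 without thinning. Pearson's r over thinned cells was 0.12 in the day 4 library labelled Kmt2d+/βgeo and lay between -0.019 and 0.073 in the other 7.

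**Figure D4:**
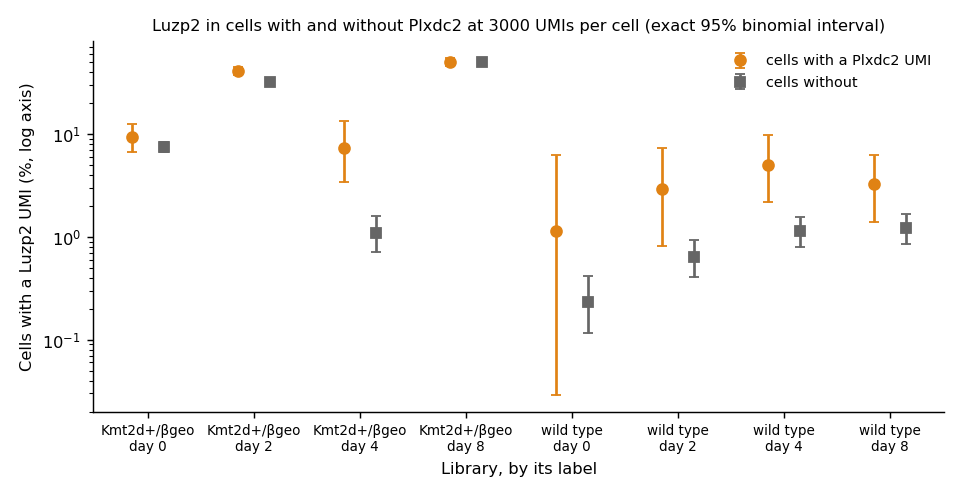
Share of cells with a Luzp2 UMI (log axis) among thinned cells with and without a Plxdc2 UMI in each of the 8 libraries, with the exact 95% binomial interval. With the Kmt2d+/βgeo label the shares nearly coincide at day 8 (50.1% and 50.3%) and differ at day 2 (41.2% and 32.2%), and they stand apart in the low libraries of day 4 (7.32% and 1.08% with the Kmt2d+/βgeo label, 5.03% and 1.13% with the wild-type label).

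Cells of the 3 high libraries were split by 10 other genes, with 26 splits of enough cells for each of Luzp2 and Plxdc2. At 3000 UMIs the intervals of cells with and without the other gene were separate for 9 splits of Luzp2 and 3 of Plxdc2, and without thinning, where deeper cells can hold more of any 2 transcripts, for 14 and 13. Hopx encodes a homeodomain protein of quiescent neural stem cells and astrocytes. In thinned cells labelled Kmt2d+/βgeo with a Hopx UMI, Luzp2 was found in 12.2% (9.39 to 15.4) at day 0, 43.6% (41.0 to 46.3) at day 2 and 52.4% (49.9 to 54.9) at day 8, against 7.14% (6.34 to 8.00), 29.6% (28.1 to 31.2) and 45.0% (41.1 to 48.9) of the other cells. Olig2, a basic helix-loop-helix factor of the oligodendrocyte lineage, split the cells the other way, and Luzp2 was found in 6.62% (5.77 to 7.55), 29.1% (27.4 to 30.8) and 46.2% (41.8 to 50.7) of cells with Olig2 and in 10.5% (8.85 to 12.4), 39.1% (37.0 to 41.1) and 51.5% (49.1 to 53.9) of cells without. The Olig2 intervals overlapped at day 8. Cells with Olig2 were 72.2%, 55.3% and 23.0% of the thinned cells on these days. Olig2 was the only measured marker of its lineage, so cells with it are not read as that lineage. In the 5 low libraries the intervals of the Hopx split overlapped, and Luzp2 was found in 0.965% (0.50 to 1.68) of cells with Hopx and 1.63% (1.12 to 2.29) without at day 8 with the wild-type label. Before thinning, the log2 ratio of the Hopx level in Luzp2 cells over the rest was -0.15, -0.31, 0.15 and 1.33 with the wild-type label at days 4, 8, 2 and 0 and -0.56 in the day 4 library labelled Kmt2d+/βgeo, so its direction differed among the low libraries. Sox9, a factor of neural stem cells and glia, gave 52.4% against 41.8% at day 8, 35.9% against 31.7% at day 2 and, with intervals that overlap, 8.85% (7.52 to 10.3) against 7.00% (6.06 to 8.04) at day 0. Slc1a3, the glial glutamate transporter GLAST, gave 34.6% against 20.9% at day 2, and its intervals overlapped at day 0 (8.02% and 5.33%) and at day 8 (50.7% and 45.6%). Gja1, the gap junction protein connexin 43, gave 54.1% (51.1 to 57.1) against 46.5% (43.6 to 49.5) at day 8, with intervals that overlap at days 0 (7.55% and 7.71%) and 2 (37.1% and 33.2%). In dividing cells, marked at day 0 by the topoisomerase gene Top2a, Luzp2 was found in 6.41% (5.26 to 7.72), and in 8.48% (7.45 to 9.59) of the rest, with intervals that overlap. These splits at day 0 are of 1 library in which Apoe, an apolipoprotein abundant in astrocytes, was itself 2-fold or more above its wild-type counterpart.

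Plxdc2 followed the Hopx, Olig2 and Slc1a3 splits at day 2, while its Sox9 intervals overlapped, at 16.6% (15.1 to 18.3) and 13.9% (12.7 to 15.3). At days 0 and 8 the intervals of all 4 splits overlapped at 3000 UMIs. With the Kmt2d+/βgeo label at day 2 it was found in 19.5% (17.4 to 21.7) of cells with Hopx and 13.4% (12.3 to 14.6) without, in 11.96% (10.8 to 13.2) of cells with Olig2 and 19.0% (17.4 to 20.7) without, and in 15.6% (14.5 to 16.6) of cells with Slc1a3 and 9.63% (6.83 to 13.1) without. At day 8 the Hopx split gave 23.2% and 22.7% and the Olig2 split 22.7% and 23.1%. Without thinning, the Hopx split at day 8 was 31.0% (29.1 to 33.0) and 22.5% (19.6 to 25.5). Irx5, which shared the pattern between the labels, gave overlapping intervals for both genes in the 3 high libraries at 3000 UMIs, with Luzp2 in 36.7% (32.8 to 40.7) of Irx5 cells and 33.1% (31.7 to 34.5) of the others at day 2, and Plxdc2 in 13.7% (11.0 to 16.7) and 15.3% (14.2 to 16.4). Without thinning, the Irx5 intervals of the high libraries were separate for Luzp2 at day 2 and for Plxdc2 at days 0 and 2. The log2 ratios of means in Irx5 cells over the others were 0.40, 0.44 and 0.36 there. In the low libraries the unthinned Plxdc2 intervals were separate except at day 4 with the wild-type label. At 3000 UMIs, in the day 4 library labelled Kmt2d+/βgeo, 6 of 62 Irx5 cells held Luzp2, 9.68% (3.63 to 19.9) against 1.17% (0.787 to 1.68) of the others. In the wild-type libraries 0 of 91, 51, 57 and 51 Irx5 cells held it on days 0, 2, 4 and 8, with exact binomial upper limits of 3.97 to 6.98% that take in the shares of the other cells. Without thinning, Luzp2 was in 1 of 313, 4 of 154, 11 of 157 and 11 of 112 of these, and the day 8 intervals were separate, at 9.82% (5.01 to 16.9) and 3.32% (2.72 to 4.02). At 3000 UMIs, cells with and without a Kmt2d UMI had overlapping intervals for both genes at days 0, 2 and 8 with the Kmt2d+/βgeo label. In the day 4 library of that label Plxdc2 was found in 8.68% (5.45 to 13.0) of cells with Kmt2d and 4.45% (3.64 to 5.38) without. In the wild-type library of day 4 it was found in 3.50% and 4.62%, with intervals that overlap.

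Where the transcripts were abundant, few genes differed on all of days 0, 2 and 8 between cells with and without a UMI of them. With the Kmt2d+/βgeo label, thinned means were 0.0966, 0.510 and 0.865 Luzp2 UMIs per cell. Cells without a UMI may thus hold unsampled transcript, which limits the split, and the rule passes over single days. Before thinning, log2 ratios in Luzp2 cells over the rest were 0.90, 1.00 and 0.36 for Hopx on these days. For Top2a they were 0.0013, -0.91 and -1.11. Of 5379 genes with enough counts, 0 were 1.5-fold or more higher on each of days 0, 2 and 8 in Kmt2d+/βgeo-labelled cells with Luzp2 than in those without, and likewise 0 for Plxdc2. In the lower direction 1 gene passed 1.5-fold on all 3 days for Luzp2, Lhfpl3, and 0 for Plxdc2. Before thinning, Nav1 also passed for Luzp2, among 6322 genes. For Luzp2 the leading genes by their lowest log2 ratio were Tgfbr2, a receptor for transforming growth factor beta, at 0.39, Rnf182 at 0.39 and Ctsh, a lysosomal cathepsin, at 0.38, followed by Emp2 and Ehbp1. For Plxdc2 they were Cox6b2, a cytochrome c oxidase subunit, at 0.46 and Itga1, a collagen-binding integrin, at 0.41, followed by B230206L02Rik, Limch1 and Bace2.

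In the low libraries the few cells with Luzp2 differed from the rest in a small set of genes. This comparison was added after the values above were seen. It took the wild-type libraries of days 2, 4 and 8 and the day 4 library labelled Kmt2d+/βgeo, with 67, 118, 114 and 81 Luzp2 cells, and cells before thinning. The wild-type library of day 0 was left out for its 22 Luzp2 cells, under the minimum of 50, and its values are given apart. Plxdc2 was higher in the Luzp2 cells of all 4 libraries, at a mean normalised count of 0.362 against 0.0885, 0.570 against 0.129, 0.708 against 0.239, and 0.580 against 0.129. The log2 ratios were 2.03, 2.15, 1.57 and 2.17, whereas with the Kmt2d+/βgeo label at days 0, 2 and 8 they were 0.18, 0.43 and 0.025. Of 6786 genes with a mean of at least 0.1 in each of the 4 libraries, which leaves out Plxdc2, 3 were at least 2-fold higher in Luzp2 cells in every one. These were Ctsc, a lysosomal cathepsin (log2 ratios of 1.55 to 1.80), Dlgap1, a postsynaptic scaffold protein (1.20 to 1.53), and Gas6, a ligand of TAM receptor kinases (1.06 to 1.94). Without the day 4 library labelled Kmt2d+/βgeo, 4 genes passed in the 3 wild-type libraries, these and Shisa9, and Gas6 reached 1.83. By summed UMIs the intervals of Ctsc stayed above 2-fold in all 4 libraries. Those of Dlgap1 reached under 2-fold in all 4, as with 1.15 (0.83 to 1.45) in the wild-type library of day 4. That of Gas6 did so in the wild-type library of day 8, at 1.05 (0.75 to 1.34). The same 3 genes had ratios between -0.18 and 0.24 in the libraries where Luzp2 was high. There, as said above, cells without a Luzp2 UMI may hold the transcript unsampled.

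Of the astrocyte list, 3 of 5 genes were higher in the Luzp2 cells of all 4 libraries, as were 12.6% of the 6786 genes. The same 3 were higher in the 3 wild-type libraries alone, against 16.5% of genes. Of the 5 progenitor genes, Sox9 (0.16 to 0.70) and Slc1a3 (0.12 to 0.88) were higher in all 4, and Vim (-0.42 to -0.14) was lower, as were 21.0% of genes. Aldh1l1, a folate enzyme used as an astrocyte marker, was higher by log2 ratios of 0.62 to 1.11 with the wild-type label and 1.28 with the other, Slc1a2, the glutamate transporter GLT-1, by 0.49 to 1.39 and S100b, a calcium-binding protein, by 0.44 to 0.75. Gja1 ranged from -0.020 to 1.43, and Apoe from -0.13 to 0.51, both lowest at day 8 with the wild-type label. Olig2 was lower in these cells, with 1.44 against 6.45 in the wild-type library of day 2 (log2 ratio of -2.16), 0.509 against 2.23 at day 4 (-2.13), 0.554 against 0.924 at day 8 (-0.74) and 0.656 against 2.37 in the day 4 library labelled Kmt2d+/βgeo (-1.85). Lhfpl3, Cav1 and Zic1 were at least 2-fold lower in every one of the 4 (with Tbc1d16 as well in the 3 wild-type libraries alone), although by summed UMIs Cav1 was at -0.70 (-2.02 to 0.37) in the wild-type library of day 8. The intervals of Lhfpl3 and Zic1 by summed UMIs reached under 2-fold in all 4. Lhfpl3 was also lower in Luzp2 cells of the 3 high libraries (-0.63, -1.10 and -1.25 on days 0, 2 and 8). The Luzp2 cells were also deeper, with a median of 7457 to 10231 UMIs on matrix genes against 6976 to 8861 in the others, and the part of depth in these ratios was not tested beyond the scaling of each cell. In the 22 Luzp2 cells of the wild-type library of day 0, Plxdc2 (2.10), Ctsc (1.39), Dlgap1 (3.28), Aldh1l1 (2.05), Slc1a2 (2.85), Gja1 (2.87) and Apoe (2.96) were higher and Olig2 (-0.74) lower on the log2 scale, while Gas6 (-0.53), Cav1 (1.71) and Zic1 (0.22) went the opposite way to the other low libraries.

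Over the 8 libraries, Plxdc2 was among the 5 genes most like Luzp2 in level, although not under every setting. By Pearson's r of log2 levels, the nearest of 8078 genes were Ccdc106 (0.972), Lamc1, a laminin chain (0.958), Plxdc2 (0.954), Gm46430 (0.953) and Ptprk, a receptor tyrosine phosphatase (0.951). For Plxdc2 they were Afap1l2, an adaptor of Src kinase (0.990), Klhl29 (0.972), Mypop (0.968), Copz2 (0.964) and Luzp2 (0.954). These correlations describe 8 libraries that fall into a high and a low set, and the split of the labels was the basis on which the pair was selected, so no test is given. Leaving out the day 4 library labelled Kmt2d+/βgeo gave 0.952 between Luzp2 and Plxdc2, and a pseudocount of 0.1 gave 0.942, and under either change Plxdc2 was no longer among the 5 genes nearest to Luzp2.

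The genes beside Luzp2 and Plxdc2 on their chromosomes were under 2-fold between the labels on every day. Genes past 2-fold in either direction were 1.55% of all genes compared at day 0, 2.84% at day 2, 0% at day 4 and 4.87% at day 8, so a count of 0 among so few neighbours is near that share and nothing is read from it. Of matrix genes with an end within 5 Mb of Luzp2 there were 15, and 0 of the 10 to 12 compared on any day passed 2-fold. For Plxdc2 there were 30, and 0 of the 19 to 21 compared passed. The nearest matrix genes on each side of Luzp2 were Svip, 2.83 Mb before its start, and Tubgcp5, a gamma-tubulin complex protein 0.525 Mb beyond its end. Svip had log2 ratios of 0.68 at day 2 and 0.59 at day 8, and Tubgcp5 had 0.19, -0.062 and -0.062 at days 0, 2 and 8. Those on each side of Plxdc2 were Arl5b, 1.27 Mb before it, and Nebl, 0.588 Mb beyond it. Arl5b was at -0.36 at day 0 and 0.48 at day 8, and Nebl at -0.48, -0.13 and 0.10 at days 0, 2 and 8. The widest ratio in either neighbourhood was that of Vim, the intermediate filament vimentin, at -0.99 on day 8. The medians of the neighbours on days 0, 2 and 8 were 0.077, 0.049 and -0.014 around Luzp2 and -0.081, 0.024 and 0.022 around Plxdc2, close to the medians of -0.037, -0.0020 and 0.011 of all genes compared.

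**Figure D5:**
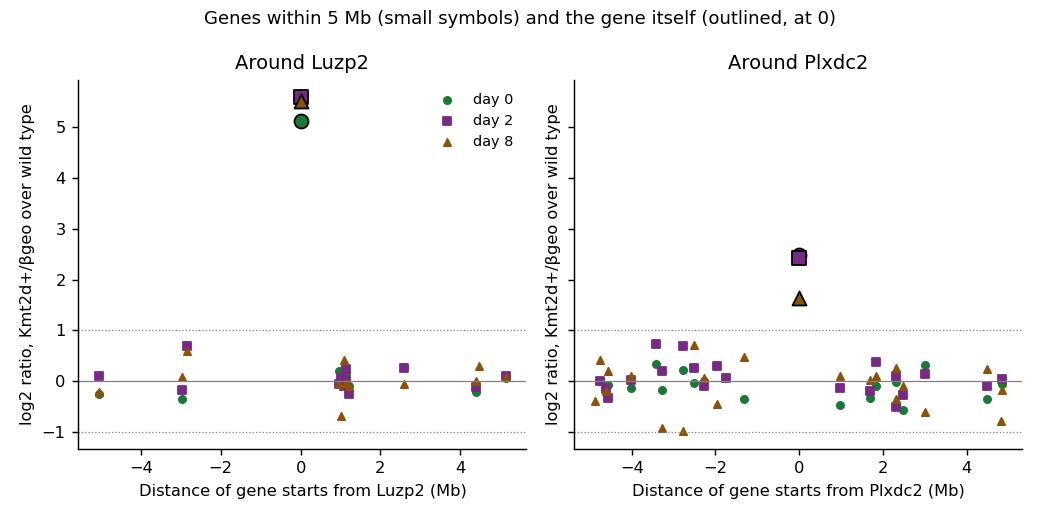
Log2 ratio of levels between the labels (Kmt2d+/βgeo over wild type) of matrix genes within 5 Mb of the ends of Luzp2 and Plxdc2, by the distance between gene starts in Mb, for days 0, 2 and 8. The outlined symbols at 0 are Luzp2 (5.12 to 5.60) and Plxdc2 (1.65 to 2.47), and all neighbours lie between the dotted lines at -1 and 1.

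Measured genes of a list built around Plxdc2, and the namesake of Luzp2, stayed under the threshold on all 4 days. Besides the paralogue, nidogens and cortactin, the list took in pigment epithelium-derived factor and proteins that bind it, which need not act with Plxdc2. The list held 10 genes, of which 5 were measured and compared, and 0 of 5 passed in either direction on any day, a count that cannot be told from the 0 to 4.87% of all genes that passed. Lrp6, a Wnt co-receptor that also binds pigment epithelium-derived factor, had log2 ratios of -0.089, -0.013, 0.13 and 0.35 on days 0, 2, 4 and 8. Nid2, a nidogen of the basement membrane, had 0.28, 0.41, 0.072 and 0.19, and Cttn, the actin-binding protein cortactin, lay between -0.041 and 0.092. Atp5b, an ATP synthase subunit, was lowest at -0.95 on day 8. Luzp1, named for the same leucine zipper motif, lay between -0.013 and 0.27. The paralogue Plxdc1, the ligand gene Serpinf1, and Pnpla2, Rpsa and Nid1 were not analysed here.

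Marker levels moved with the labels as well, and their part in the Luzp2 and Plxdc2 differences was not tested. The summed level of the 5 astrocyte genes was 16.2, 214, 252 and 101 on days 0, 2, 4 and 8 with the Kmt2d+/βgeo label and 8.20, 158, 233 and 238 with the wild-type label. Most of each sum was Apoe, and at day 2 the other 4 genes went the other way, with log2 ratios of -1.26 for Gja1, -0.91 for S100b, -0.68 for Aldh1l1 and -0.85 for Slc1a2. The median ratio of the 5 genes was -0.073, -0.85, 0.065 and -0.82 on the 4 days. Gja1 at day 2 (-1.26) and Apoe at day 8 (-1.28) were past 2-fold in the lower direction, and Apoe at day 0 (1.26) in the higher. The 5 progenitor genes summed to 79.7, 142, 90.0 and 75.3 against 69.9, 118, 86.7 and 122, and the 3 neuron genes to 3.07, 3.19, 4.46 and 4.29 against 3.15, 3.60, 4.31 and 3.77. Most of each progenitor sum was Vim and Fabp7, and most of each neuron sum was Map2. The median ratio of the progenitor genes was -0.17, -0.078, 0.073 and -0.074 on the 4 days. At days 0 and 2 Vim and Fabp7 were higher with the Kmt2d+/βgeo label, while Pax6, Sox9 (-0.75 and -0.56) and Slc1a3 (-0.27 and -0.73) were lower. Rbfox3, a neuronal splicing factor, was past 2-fold at day 8 (1.26). Olig2 was lower by less than 2-fold with the Kmt2d+/βgeo label at days 0 and 2 (-0.55 and -0.42) and higher at day 8 (0.70). Hopx, used above to split cells, had log2 ratios of 0.94, -0.065, 0.021 and 1.76 on days 0, 2, 4 and 8. Those of Top2a were 0.084, 0.15, -0.070 and -1.15.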

How the data were processed

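The 8 libraries were made with 10x 3′ v3 chemistry. By the labels and methods, the authors counted spliced molecules with alevin (Salmon 1.3.0) on GRCm38, removed outlying cells and doublets, and log2 transformed scaled counts. Deposited values are log2 of normalised count plus 1, for 9140 genes and 30408 cells. The total UMIs of each cell were deposited as the authors' estimated counts.

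Values were turned back to normalised counts, which sum to 8707 in every cell. Each cell's commonest nonzero value stood for 1 UMI, by which 86.8% of values were within 0.01 of whole, and rounded UMIs were thinned. Log2 ratios were compared where a mean was at least 0.1. With 1 library per label and day no test was run. Intervals are 95% (exact binomial, exact Poisson, exact conditional for ratios) and cover counting error only. Likeness used a pseudocount of 0.01. Intervals of cell shares and summed UMIs ignore spread between cultures.

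The 2 genes, the lists and the rules were chosen with earlier results of these data known. Named are the fixed lists, 5 neighbours on each side, the 5 most alike and 5 leading genes, and genes at a threshold. Ctsc, Dlgap1, Gas6, Lhfpl3, Nav1, Cav1, Zic1, Shisa9, Tbc1d16, Vim, Col11a1 and Mlf1 were named after their values were seen. Counting and ranking code was tested on simulated data. Python 3.11.15, NumPy 2.4.6, pandas 2.3.3 and SciPy 1.17.1 were used.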

Additional observations from a re-analysis of the deposited data

Results flagged for a closer look

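The change from day 0 to day 4 ran in opposite directions with the 2 labels. For Luzp2 it was -2.52 on the log2 scale with the Kmt2d+/βgeo label and 2.36 with the wild-type label, and for Plxdc2 it was -1.16 and 1.32. The ratio of Plxdc2 between the labels at day 4 was -0.0055, the opposite sign to the other 3 days, with an interval of the summed UMIs that included 0, and the sign turned after thinning (0.080), on mean log2 values (0.0010) and without the 5% of cells with most UMIs (0.049). Apart from the wild-type changes, these values rest on the day 4 library labelled Kmt2d+/βgeo. The differences were not tested because each label and day has 1 library.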

How the results depend on the processing

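Both genes kept the direction of every ratio past 2-fold (days 0, 2 and 8) under pooled UMIs, thinning to 3000 UMIs, a difference of mean log2 values and removal of the 5% of cells with most UMIs. The difference of mean log2 values is a compressed scale on which low levels give small values by construction. On it the ratios of Luzp2 were 0.22, 0.93 and 1.28 at days 0, 2 and 8 and those of Plxdc2 were 0.24, 0.34 and 0.31, and the changes from day 0 to day 8 were 1.10 and 0.041 for Luzp2 and 0.23 and 0.16 for Plxdc2 (Kmt2d+/βgeo label first). Thinning moved the ratio of Luzp2 at day 0 from 5.12 to 4.70 and at day 8 to 5.80, and that of Plxdc2 at day 2 to 2.24. The wild-type change of Luzp2 from day 0 moved from 2.36 to 1.82 at day 4 and from 2.80 to 2.07 at day 8. The change of Plxdc2 to day 4 with the Kmt2d+/βgeo label moved from -1.16 to -0.99. At 5000 UMIs the cells with both genes at day 2 with the Kmt2d+/βgeo label were 1.08 times the product of the shares. Shares of cells follow depth and the cells deep enough to be kept. Luzp2 at day 8 with that label was in 33.6% of 2892 cells at 1500 UMIs and 61.2% of the 670 left at 5000. The genes higher by 2-fold were 99, 173 and 213 at days 0, 2 and 8 with no minimum mean and 12, 37 and 64 with a minimum of 0.5. Of the 5 genes most like Luzp2, 2 remained with a pseudocount of 0.1, 1 by rank correlation and 3 without the day 4 library labelled Kmt2d+/βgeo. Of 118 splits of cells by other genes, 50 moved by more than their interval without thinning. No pairing by sample number was possible because the labels share no number, all titles having sample 2 for Kmt2d+/βgeo and sample 4 for wild type. Days were by choice not used as blocks, since the genes were selected on this contrast.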
